A study of Homo sapiens with 6 samples.

Results

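The ATP-binding cassette (ABC) transporter family was examined in RKO cells, a human colon carcinoma cell line in long use. Its members were chosen by gene symbol: the letters ABC, a subfamily letter from A to G and a number. This found 46 of the 28278 gene rows, 12 in subfamily A, 9 in B, 12 in C, 4 in D, 1 in E, 3 in F and 5 in G. No measured value entered that rule, but the family was taken up with changes between these groups already known, so its counts and p-values are descriptive. The 3 shTRIM21 libraries came from cells with a lentiviral short hairpin RNA against TRIM21, an E3 ubiquitin ligase, and the 3 shControl libraries from cells with a scrambled hairpin, whose genotype is given as WT. Cells of both groups were infected with lentivirus and kept in puromycin at 5 µg/ml from 36 h after infection, for weeks. Total RNA depleted of ribosomal RNA was sequenced. The labels give each group as biological replicates without naming separate infections or clones, so p-values measure the spread between these libraries. A source field calls the samples mouse tissue, whereas organism, cell line and gene symbols are human.

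ABC proteins carry a nucleotide-binding domain that hydrolyses ATP, and most of them use it to move a substrate across a membrane. Subfamily A moves lipids, B holds the multidrug pump P-glycoprotein together with transporters of mitochondria and lysosomes, C holds the multidrug resistance proteins (MRPs) and the sulfonylurea receptors, and D brings fatty acids into peroxisomes. Members of E and F have no membrane part and act in translation, and G moves sterols and drugs. In gut epithelium the best known members are export pumps that limit the uptake of drugs and carry conjugated metabolites out of the cell.

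Libraries held 33499827 to 44466137 counts in all. Without ribosomal RNA rows the range was 27808151 to 29100459. Those rows took 16.99% to 23.5% of the counts in shTRIM21 and 14.7% to 36.9% in shControl, where replicates 1 (31.0%) and 3 (36.9%) stood apart from replicate 2. The counts of called members and list genes are therefore also given without shControl replicates 1 and 3. TRIM21 had 299, 271 and 297 counts in shTRIM21 and 459, 421 and 343 in shControl, a change of -0.54 on the log2 scale (SE 0.12; adjusted p = 0.00424 by edgeR, its range over the alternatives being 0.000399 to 0.197). The highest of these came with unscaled library sizes, where the change of -0.34 was not called. Of 12 colon epithelium markers 8 passed the filter on low counts, 1 rose and 3 fell, while with library sizes alone 2 were called higher and 0 lower. Their summed level ran from 4639 to 4881 CPM (counts scaled to a common library size) in shTRIM21 and from 5971 to 6637 CPM in shControl, with CDX1, CEACAM5 and LGALS4 listed at 0. Most of that sum was KRT8, KRT18 and KRT19, the 3 markers that fell. CDH1 rose by 0.57 on the log2 scale (SE 0.068; adjusted p = 3.31e-05 by edgeR), and the rest of the tested colon markers were not called. The 6 white blood cell markers summed to at most 0.586 CPM in shTRIM21 and 0.497 CPM in shControl, and the 5 endothelial markers to at most 0.773 CPM in both groups. The 6 fibroblast markers summed to 10.3 to 10.9 CPM in shTRIM21 and 6.12 to 9.19 CPM in shControl, nearly all of it COL1A1, while DCN, LUM and THY1 were listed at 0. The part of these marker changes in the results below was not tested.

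RKO cells held transcripts of most of the family. Of the 46 members, 31 passed the filter on low counts (edgeR's filterByExpr, minimum count 10), 10 had a few counts and 5 were listed at 0 in all 6 libraries. Summed over the family, the level was 1101 ± 5.11 CPM in shTRIM21 and 1104 ± 19.9 CPM in shControl (SD, n = 3 each), so the groups overlapped. All CPM use library sizes corrected by the trimmed mean of M values (TMM). On the scale of CPM per kilobase (kb) of exon, which allows genes of different length to be compared, the soluble translation factor genes were highest. Their levels per kb were 30.6 in shTRIM21 and 33.1 in shControl for ABCE1, 28.4 in shTRIM21 and 33.5 in shControl for ABCF1, and 28.1 in shTRIM21 and 31.8 in shControl for ABCF2. ABCC1, which encodes the export pump MRP1, followed at 15.4 in shTRIM21 and 15.9 in shControl per kb. Ranges of the levels per kb of ABCE1, ABCF1 and ABCF2 overlapped within each group. Compared within each library, ABCF1 lay above ABCF2 in all 6, at times by little. ABCE1 was the highest in each shTRIM21 library, but its place varied between shControl libraries. This order also rests on the exon lengths used. At the low end of the 31 members, ABCA12 had 0.126 in shTRIM21 and 0.0988 in shControl per kb, and ABCA1 had 0.150 in shTRIM21 and 0.0975 in shControl. The 4 members with the highest CPM made up 52.9% of the family's summed level.

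**Figure D1:**
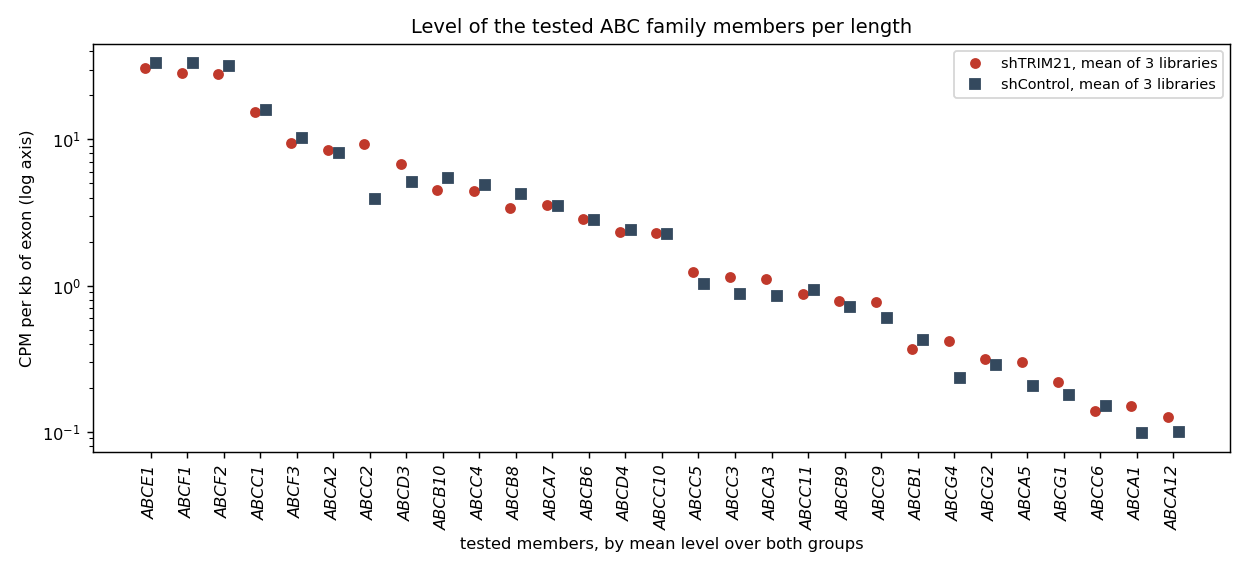
Mean level of 29 of the 31 tested members in CPM per kb of exon on a log axis, shTRIM21 as red circles and shControl as dark squares, each the mean of 3 libraries, ordered from high to low over both groups. ABCE1, ABCF1 and ABCF2 stand at the top, and the widest gap between the groups among members above 1 CPM per kb is that of ABCC2, at 9.32 in shTRIM21 and 3.93 in shControl.

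Between the groups, 10 of the 31 tested members were called (quasi-likelihood test of edgeR, with a p under 0.05 after Benjamini-Hochberg adjustment over the 15131 tested genes), 6 higher and 4 lower in shTRIM21. Among all tested genes 20.8% were called, 9.77% higher and 11.0% lower, against 32.3% of the tested members. These shares of all tested genes also stand beside the subfamily and list counts below, which are descriptive. The members that rose were ABCC2, ABCC3, ABCA3, ABCA5, ABCD3 and ABCG4, and those that fell were ABCB8, ABCB10, ABCF1 and ABCF2. In bulk libraries a change in all cells and a change in the share of cells that hold a transcript cannot be told apart. The median log2 fold change was 0.02 over the tested members and 0.01 over all tested genes. The groups did not overlap for 13 of the 31 members, against 37.7% of all tested genes. Scaling moves this balance. Of all calls 47.0% were higher with TMM factors, 62.1% with upper-quartile factors and 93.0% with library sizes alone, where the median of all tested genes moved to 0.22. Of the members, 7 were called higher and 2 lower with upper-quartile factors, and 9 higher and 0 lower with library sizes alone. Those library sizes include the ribosomal RNA counts. With ribosomal RNA rows left out before TMM scaling, 44.7% of all calls were higher. The same 10 members were then called, 6 higher and 4 lower. Without shControl replicates 1 and 3, 4 were higher and 2 lower, with the remaining shControl library assumed to vary like those of shTRIM21. By subfamily, that fit called 0 members in A, 1 lower in B, 2 higher in C, 2 higher in D, 0 in E, 1 lower in F and 0 in G.

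**Figure D2:**
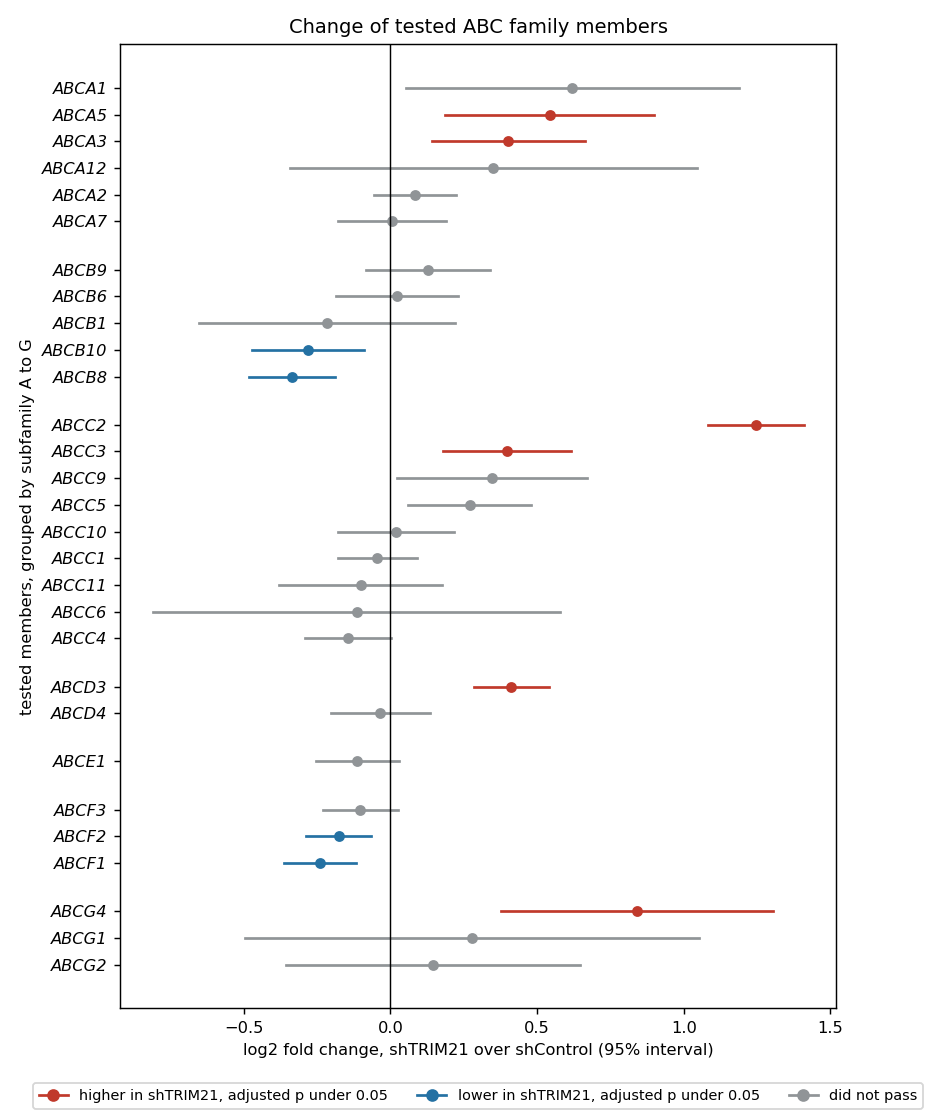
Log2 fold change of 29 of the 31 tested members, shTRIM21 over shControl, with its 95% interval, grouped by subfamily from A at the top to G at the bottom. Red marks the 6 members called higher in shTRIM21, blue the 4 called lower and grey the other 19, and ABCC2 lies farthest from 0 at 1.25.

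Calls of ABCC2, ABCD3, ABCB8 and ABCF1 were kept when any 1 of the 6 libraries was left out. Their promoters are shown for that reason, as the 250 bases before the gene start in RefSeq's GRCh38.p14 table, 5′ to 3′ on the strand of the gene. On GRCh38.p14 the genes span chr10:99782640-99852594 (ABCC2), chr1:94385131-94518663 (ABCD3), chr7:151028450-151047782 (ABCB8) and chr6:30571442-30591522 (ABCF1). The ABCD3 start in the promoter table lies inside the gene's annotated span. Capitals mark matches to short words on either strand. The GC box was searched as GGGCGG and the CCAAT box by the letters of its name. The TATA box was read as TATAAA. For ETS factors the word was CCGGAAG. The E-box was taken to be CACGTG. Antioxidant response elements were searched with TGACNNNGC. The TEAD word was GGAATG. The cAMP response word TGACGTCA had no match in these 4 windows, nor did the AP-1 word, written TGANTCA.
ABCC2, chr10:99782390-99782639, plus strand: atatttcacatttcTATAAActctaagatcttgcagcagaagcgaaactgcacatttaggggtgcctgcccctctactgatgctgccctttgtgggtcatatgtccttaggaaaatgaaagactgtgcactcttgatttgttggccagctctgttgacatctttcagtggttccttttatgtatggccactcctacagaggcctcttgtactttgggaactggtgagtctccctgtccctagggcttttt
ABCD3, chr1:94418139-94418388, plus strand: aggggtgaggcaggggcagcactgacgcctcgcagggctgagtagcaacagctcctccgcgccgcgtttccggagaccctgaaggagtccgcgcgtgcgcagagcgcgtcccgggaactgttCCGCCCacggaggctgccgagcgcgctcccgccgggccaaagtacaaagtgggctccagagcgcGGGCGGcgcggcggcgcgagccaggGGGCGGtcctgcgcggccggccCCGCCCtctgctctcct
ABCB8, chr7:151028200-151028449, plus strand: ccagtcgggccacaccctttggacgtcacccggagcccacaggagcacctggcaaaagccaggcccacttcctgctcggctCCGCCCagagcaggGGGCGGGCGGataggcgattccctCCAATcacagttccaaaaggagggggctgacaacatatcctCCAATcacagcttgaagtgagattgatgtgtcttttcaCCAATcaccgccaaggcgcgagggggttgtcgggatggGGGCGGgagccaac
ABCF1, chr6:30571192-30571441, plus strand: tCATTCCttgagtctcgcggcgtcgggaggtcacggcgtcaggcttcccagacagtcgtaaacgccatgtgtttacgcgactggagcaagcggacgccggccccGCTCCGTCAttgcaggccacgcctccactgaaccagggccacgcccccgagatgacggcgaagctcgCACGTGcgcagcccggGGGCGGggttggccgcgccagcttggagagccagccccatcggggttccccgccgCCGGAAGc
The ABCC2 window held a TATA box word 236 bases before the start, 0 GC boxes and 1 CG pair, with 45.6% G and C. The other windows held between 61.6% and 74.4% G and C, with 4 GC boxes for ABCD3, 4 for ABCB8 and 1 for ABCF1, and 34, 13 and 31 CG pairs. Over all 35116 promoter entries of the table the median was 58.0% G and C. The GC box was in 42.6% of all entries, the CCAAT box in 32.0% and the TATA box word in 10.7%. The ETS word was in 8.52%, the E-box in 6.34%, the antioxidant response word in 10.9% and the TEAD word in 11.9%. The cAMP response word was in 1.65% and the AP-1 word in 6.57%. A match in a window describes its letters and shows no binding. Of the GC boxes of ABCB8, 2 overlap each other.

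Of 9 drug efflux pumps, all of which passed the filter, 2 rose, 0 fell and 7 were not called, with a median log2 fold change of 0.02. That is 22.2% called, against 20.8% of all tested genes. ABCC2 encodes MRP2, a pump of the apical membrane that exports conjugated organic anions such as glutathione and glucuronide conjugates. It had 2670, 2802 and 2894 counts in shTRIM21 libraries, against 1318, 1044 and 1053 in shControl libraries. Every shTRIM21 library stood above every shControl library by more than the spread within either group. The level averaged 73.1 ± 2.96 CPM in shTRIM21 and 30.8 ± 3.59 CPM in shControl (SD, n = 3 each), 2.37-fold higher (log2 fold change 1.25, SE 0.077, 95% interval 1.08 to 1.41; adjusted p = 6.32e-08 by edgeR). Of all tested genes 14 had a smaller p-value, and among the genes called higher 84 changed by a larger fold. ABCC2 ranked number 6 in the family by count in each shTRIM21 library and number 10 in each shControl library. It took 6.49%, 6.47% and 6.95% of the family's counts in shTRIM21, against 3.23%, 2.56% and 2.59% in shControl.

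Ratios of counts within a library do not depend on scaling. Per 100 counts of ABCC1, a comparison chosen after the values were seen, ABCC2 had 66.0, 60.9 and 61.5 counts in shTRIM21 and 30.1, 24.6 and 22.5 in shControl. Per 100 counts of ABCC4, it had 196, 186 and 190 counts in shTRIM21 and 88.5, 66.9 and 64.4 in shControl. Neither ratio overlapped between the groups. ABCC4 was also chosen after the values were seen, and its own log2 fold change was -0.14, not called. ABCC2 overlaps the pseudogene NANOGP6, so reads of that pseudogene may be counted with it.

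ABCC3 encodes MRP3, a pump of the basolateral membrane for glucuronide conjugates and bile salts. It had 422, 414 and 428 counts in shTRIM21 and 347, 294 and 288 in shControl, with no overlap between the groups. On the CPM scale its level was 11.0 ± 0.410 in shTRIM21 and 8.38 ± 0.704 in shControl (SD, n = 3 each), 1.32-fold higher (log2 fold change 0.40, SE 0.10; adjusted p = 0.0129 by edgeR). Without shControl replicate 3 the call was lost (adjusted p = 0.0546 by edgeR, the highest over its alternatives, where the lowest was 0.00767).

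ABCC1, the most abundant pump, showed no detectable change. It had 4046, 4603 and 4706 counts in shTRIM21 and 4386, 4242 and 4672 in shControl, which overlapped, with a log2 fold change of -0.04 (95% interval -0.18 to 0.09). ABCC4, the gene of MRP4, which exports cyclic nucleotides and prostaglandins, had 1360, 1506 and 1521 counts in shTRIM21 and 1489, 1560 and 1634 in shControl. These groups overlapped, and its log2 fold change was -0.14 (SE 0.069; adjusted p = 0.153 by edgeR). ABCC5, encoding MRP5, which also exports nucleotides, had 471, 581 and 578 counts in shTRIM21 and 453, 410 and 443 in shControl. Its groups did not overlap, but the change of 0.27 on the log2 scale missed the threshold (SE 0.099; adjusted p = 0.0653 by edgeR). It passed with upper-quartile factors, with library sizes alone or without shTRIM21 replicate 1, with edgeR adjusted p-values from 0.0271 to 0.222 over its alternatives.

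The remaining pumps were not called. ABCC10 had a log2 fold change of 0.02 (95% interval -0.18 to 0.22) at 18.4 ± 0.337 CPM in shTRIM21 and 18.1 ± 2.22 CPM in shControl (SD, n = 3 each). ABCC11 was at -0.10 (95% interval -0.38 to 0.18). ABCB1, which encodes P-glycoprotein, had 83, 87 and 73 counts in shTRIM21 and 104, 74 and 95 in shControl. ABCG2, which encodes the breast cancer resistance protein, had 55, 60 and 68 counts in shTRIM21 and 54, 57 and 49 in shControl. For ABCB1 and ABCG2 the 95% intervals of the log2 fold change, -0.65 to 0.22 and -0.36 to 0.65, are wide at this depth. Summed over the 9 pumps, the level was 282 ± 14.9 CPM in shTRIM21 and 242 ± 9.40 CPM in shControl (SD, n = 3 each). Without ABCC2 the other 8 pumps summed to 208 ± 12.3 CPM in shTRIM21 and 211 ± 9.66 CPM in shControl (SD, n = 3 each), which overlapped. The 9 pumps took 24.4%, 25.4% and 27.0% of the family's counts in shTRIM21 and 22.4%, 21.0% and 22.4% in shControl.

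**Figure D3:**
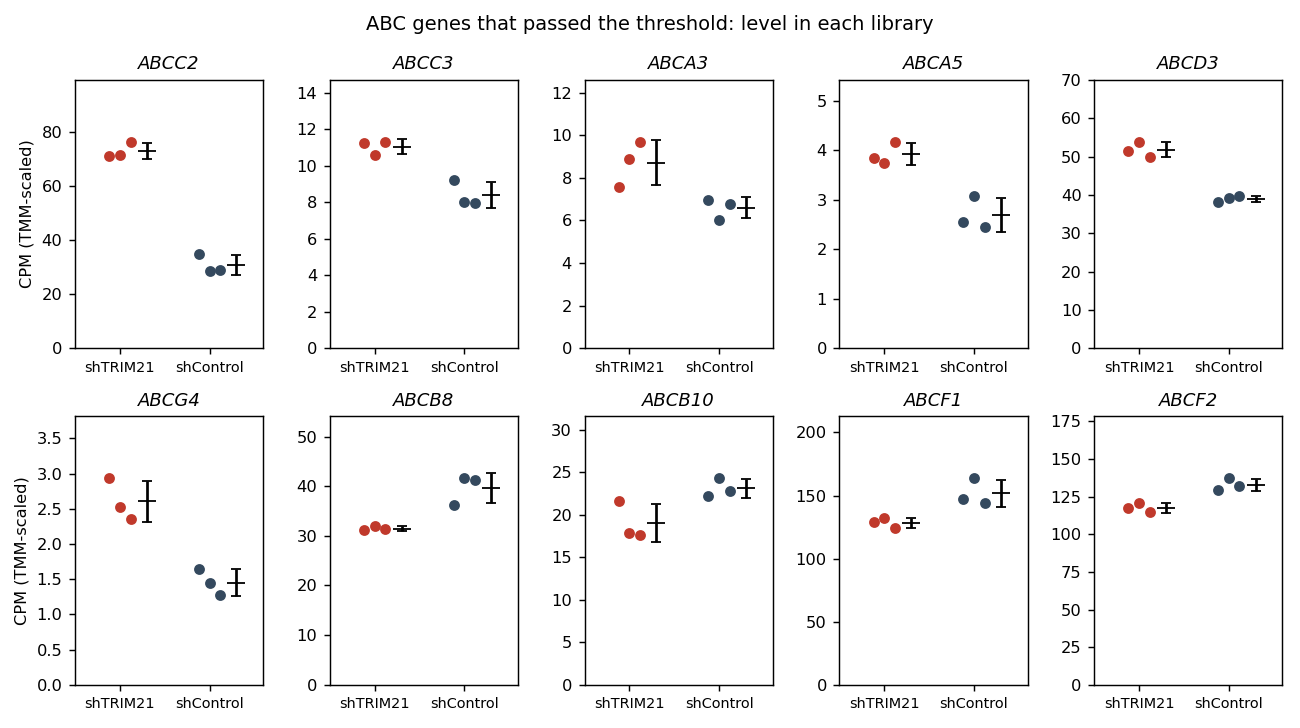
CPM of the 10 called members in each library (points, 3 per group), with the mean and SD of each group as a bar beside the points, shTRIM21 in red on the left and shControl in dark grey on the right of each panel, every axis starting at 0. No panel shows overlap between the groups, and ABCC2, at 73.1 CPM in shTRIM21 and 30.8 CPM in shControl, has the widest gap.

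The other tested genes of subfamily C were not called. ABCC9 encodes a sulfonylurea receptor, the regulatory subunit of ATP-sensitive potassium channels. It had 251, 438 and 335 counts in shTRIM21 and 261, 265 and 251 in shControl. After scaling, ABCC9 in shTRIM21 replicate 1 was at 6.69 CPM, below the shControl range of 6.91 to 7.21 CPM. In shTRIM21 replicates 2 and 3 ABCC9 lay above that range. Its log2 fold change was 0.35 (SE 0.15; adjusted p = 0.123 by edgeR), and it passed with library sizes alone or without shTRIM21 replicate 1 (edgeR adjusted p-values from 0.0152 to 0.588 over its alternatives). KCNJ11, a pore subunit of these channels, rose by 0.57 (SE 0.13; adjusted p = 0.00648 by edgeR), with 267, 305 and 280 counts in shTRIM21 and 186, 160 and 208 in shControl. KCNJ8, the other pore gene, had at most 4 counts in a library, and ABCC8, the other receptor gene, was listed at 0. ABCC6 had between 28 and 61 counts, and its near-identical copies ABCC6P1 and ABCC6P2 make its counts uncertain. RefSeq also names pseudogenes of the called members ABCA3, ABCB10 and ABCF2 and of ABCE1. Whether reads are shared between these genes and their pseudogenes was not tested.

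In subfamily A, 2 of the 6 tested members rose and 0 fell, with a median log2 fold change of 0.38. ABCA3, whose product loads phospholipid into lamellar bodies of lung cells, had 284, 348 and 367 counts in shTRIM21 and 263, 222 and 246 in shControl. Its lowest shTRIM21 library lay just above the highest shControl library after scaling, and it rose 1.32-fold (log2 fold change 0.40, SE 0.12; adjusted p = 0.0304 by edgeR). ABCA5, a lysosomal member, had 144, 147 and 158 counts in shTRIM21 and 96, 113 and 89 in shControl. These groups did not overlap, and it rose 1.46-fold (log2 fold change 0.54, SE 0.17; adjusted p = 0.0319 by edgeR). The call of ABCA3 was lost when any of shTRIM21 replicates 2 and 3 or shControl replicates 2 and 3 was left out, and that of ABCA5 was lost without any 1 of the 3 shTRIM21 libraries or without shControl replicate 1 or 3. Without shControl replicates 1 and 3 the edgeR adjusted p was 0.0746 for ABCA3 and 0.331 for ABCA5, the highest for ABCA5 over its alternatives, where the lowest was 0.0162. The highest for ABCA3 was an edgeR adjusted p of 0.119 and the lowest 0.00979.

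ABCA5 is the only tested gene of a run of 5 neighbours of subfamily A on chromosome 17. ABCA6, ABCA9 and ABCA10 had at most 4 counts in a library and ABCA8 was listed at 0. ABCA5 overlaps ABCA10 on the annotation. ABCA1, the exporter of cholesterol and phospholipid to apolipoproteins, had 72, 56 and 67 counts in shTRIM21 and 53, 38 and 32 in shControl. It had the largest change of the members that were not called, 0.62 on the log2 scale (SE 0.27, 95% interval 0.05 to 1.19; adjusted p = 0.114 by edgeR). ABCA2, a lysosomal lipid transporter with the highest CPM of the subfamily, had 3626, 3697 and 3880 counts in shTRIM21 and 3622, 3056 and 3544 in shControl. Its level was 97.8 ± 4.20 CPM in shTRIM21 and 92.3 ± 7.99 CPM in shControl (SD, n = 3 each), with overlap. ABCA7 had 1119, 1137 and 1124 counts in shTRIM21 and 1278, 974 and 1007 in shControl, and its log2 fold change was 0.01 (95% interval -0.18 to 0.19). ABCA12, the lipid transporter of the skin barrier, ran from 29 to 66 counts in shTRIM21 and from 34 to 35 in shControl.

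In subfamily B, 2 of the 6 tested members fell and 0 rose, and both encode transporters of the inner mitochondrial membrane. ABCB8, whose product has been tied to iron export and a mitochondrial potassium channel, had 1166, 1252 and 1186 counts in shTRIM21 and 1368, 1528 and 1496 in shControl. All shTRIM21 libraries lay below all shControl libraries. Its level was 31.5 ± 0.457 CPM in shTRIM21 and 39.7 ± 3.00 CPM in shControl (SD, n = 3 each), 1.26-fold lower (log2 fold change -0.34, SE 0.069; adjusted p = 0.0032 by edgeR). ABCB10, which is needed for haem synthesis in red cell precursors, had 809, 701 and 666 counts in shTRIM21 and 837, 892 and 826 in shControl. Scaled levels did not overlap, and the change was -0.28 (SE 0.090; adjusted p = 0.0384 by edgeR). With library sizes alone the values were -0.13 for ABCB8 and -0.07 for ABCB10, neither of them called. The ABCB10 call was also lost with upper-quartile factors and in 5 of the 6 leave-one-out fits, all but that without shTRIM21 replicate 1.

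The mitochondrial member ABCB6, known for porphyrin transport, was not called, at 0.02 (95% interval -0.19 to 0.23). ABCB9, a lysosomal peptide transporter, was at 10.4 ± 0.522 CPM in shTRIM21 and 9.50 ± 0.572 CPM in shControl (SD, n = 3 each) and was not called. Of 20 tested genes for iron-sulfur cluster and haem synthesis, 1 rose and 1 fell. ALAS1, the rate-limiting enzyme of haem synthesis outside red cell precursors, was lower with a log2 fold change of -0.32 (SE 0.071; adjusted p = 0.00488 by edgeR), which was -0.11 and not called with library sizes alone.

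In subfamily D, 1 of 3 tested members rose and 0 fell. ABCD3 encodes PMP70, an abundant protein of the peroxisome membrane that imports branched-chain and dicarboxylic acyl-CoAs and bile acid intermediates. It had 1935, 2113 and 1893 counts in shTRIM21 and 1439, 1438 and 1437 in shControl. Counts in shControl were almost equal and lay below all shTRIM21 counts. The level was 51.8 ± 1.98 CPM in shTRIM21 and 39.0 ± 0.781 CPM in shControl (SD, n = 3 each), 1.33-fold higher (log2 fold change 0.41, SE 0.060, 95% interval 0.28 to 0.54; adjusted p = 0.000226 by edgeR). Per 100 counts of ABCD4, a comparison chosen after the values were seen, ABCD3 had 252, 275 and 235 counts in shTRIM21 and 171, 191 and 198 in shControl.

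ABCD2 had at most 3 counts in a library. ABCD4, which works in lysosomal release of vitamin B12 rather than in peroxisomes, was at -0.03 (95% interval -0.20 to 0.13). Of 14 tested genes for peroxisomal oxidation and membrane insertion, 2 rose and 0 fell, with a median of 0.01. PEX19, the carrier that brings peroxisomal membrane proteins such as those of subfamily D to the organelle, rose by 0.54 (SE 0.077; adjusted p = 0.000208 by edgeR), with 1123, 1037 and 1165 counts in shTRIM21 and 743, 741 and 733 in shControl. ACAA1, a thiolase gene, was higher by 0.33 (SE 0.11; adjusted p = 0.0425 by edgeR), a call lost in 5 of the 6 leave-one-out fits, all but that without shControl replicate 2. The ACAA1 call was also lost with robust empirical Bayes. Without shControl replicates 1 and 3 its log2 fold change was 0.06.

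Of the 4 soluble members in subfamilies E and F, 2 fell and 0 rose, with a median log2 fold change of -0.14. ABCF1 binds initiation factor eIF2 and ribosomes. It had 4832, 5167 and 4709 counts in shTRIM21 and 5548, 6013 and 5227 in shControl. Scaled levels of 128 ± 3.77 CPM in shTRIM21 and 152 ± 10.5 CPM in shControl (SD, n = 3 each) did not overlap, and the log2 fold change was -0.24 (SE 0.058; adjusted p = 0.00869 by edgeR). ABCF2 had 4396, 4737 and 4336 counts in shTRIM21 and 4878, 5038 and 4789 in shControl, again without overlap, with a log2 fold change of -0.18 (SE 0.052; adjusted p = 0.0251 by edgeR). With library sizes alone ABCF1 was at -0.04 and ABCF2 turned to 0.03, neither called, where the median of all tested genes was 0.22. The ABCF2 call was also lost with upper-quartile factors and in 5 of the 6 leave-one-out fits, all but that without shControl replicate 1. ABCF2 overlaps the readthrough gene ABCF2-H2BK1.

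ABCE1, which splits ribosomes after translation ends, had 7711, 7508 and 6721 counts in shTRIM21 and 7118, 7952 and 7838 in shControl. These groups overlapped, and the log2 fold change of -0.11 (95% interval -0.25 to 0.03) turned to 0.09 with library sizes alone. ABCF3 had 1796, 1992 and 1848 counts in shTRIM21 and 1912, 2014 and 1918 in shControl. Its change was -0.10 (95% interval -0.23 to 0.03), turning to 0.10 with library sizes alone. Per 100 counts of ABCE1, ABCF1 had 62.7, 68.8 and 70.1 counts in shTRIM21 and 77.9, 75.6 and 66.7 in shControl, so this ratio overlapped between the groups. Of 11 tested genes for translation termination and ribosome recycling, the pathway of ABCE1, 0 were called by edgeR, 1 had an unadjusted p under 0.05, and limma-voom called 0 and DESeq2 0.

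In subfamily G, 1 of 3 tested members rose. ABCG4, a sterol transporter best known from brain, had 110, 99 and 89 counts in shTRIM21 and 62, 53 and 46 in shControl. All shTRIM21 counts exceeded all shControl counts. Its level was 2.60 ± 0.297 CPM in shTRIM21 and 1.45 ± 0.187 CPM in shControl (SD, n = 3 each), 1.79-fold higher (log2 fold change 0.84, SE 0.22; adjusted p = 0.0132 by edgeR). The call was lost without shTRIM21 replicate 1 and without shControl replicates 1 and 3, where the edgeR adjusted p was 0.089, the highest over its alternatives; the lowest was 0.00377. ABCG1, its close relative in cholesterol export, had 44, 63 and 46 counts in shTRIM21 and 62, 17 and 43 in shControl. Libraries of shControl differed from each other by more than the groups did, and the log2 fold change of 0.28 (95% interval -0.50 to 1.05) was not called. ABCG5 and ABCG8, which form the sterol exporter of gut and liver, had at most 4 counts in a library.

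The 15 members that did not pass the filter had at most 10 counts in any library. Listed at 0 throughout were ABCA8, ABCA13, ABCB5, ABCC8 and ABCC13, of which ABCC13 is annotated as a pseudogene. FBL and CANX, which nearly every cell type transcribes, are at 0 in these tables too, so a member at 0 is described only as listed at 0. ABCA4, the retinal flippase, had 9, 7 and 7 counts in shTRIM21 and 10, 4 and 10 in shControl. ABCB4, the phosphatidylcholine floppase of bile canaliculi, had 2, 3 and 2 counts in shTRIM21 and 0 in each shControl library, too few for a fold. The bile salt pump gene ABCB11 and ABCC12 each had 1 count in 1 shControl library and 0 elsewhere.

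ABC proteins whose symbols start otherwise were examined beside the family. TAP1 and TAP2 form the peptide transporter that loads MHC class I molecules in the endoplasmic reticulum, and both were lower in shTRIM21. TAP1 had 1764, 1830 and 1714 counts in shTRIM21 and 2189, 1989 and 1846 in shControl (log2 fold change -0.23, SE 0.063; adjusted p = 0.0179 by edgeR). TAP2 had 1905, 2063 and 2170 counts in shTRIM21 and 2345, 2359 and 2261 in shControl (log2 fold change -0.23, SE 0.061; adjusted p = 0.0149 by edgeR). With library sizes alone both were at -0.02 and not called, and both calls were also lost without shControl replicates 1 and 3. The TAP1 call was lost too without shTRIM21 replicate 2 or 3 or shControl replicate 1, and the TAP2 call without shTRIM21 replicate 1 or 2. CFTR, the chloride channel of epithelia and a relative of the MRPs, had 0 counts in shTRIM21 and 1 in the shControl libraries together.

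Genes that regulate or work with the family were read from lists. Their counts stand beside 9.77% of all tested genes called higher and 11.0% called lower. Among 19 tested regulators, mostly nuclear receptors and transcription factors known to act on ABC genes but with KEAP1 included, 0 rose and 6 fell. Their median log2 fold change was -0.15. Unscaled library sizes put the median at 0.06, with 1 called higher and 0 lower. NR1H2, the liver X receptor beta gene, was lower at -0.45 (SE 0.067; adjusted p = 0.000262 by edgeR), with 950, 941 and 915 counts in shTRIM21 and 1241, 1265 and 1203 in shControl. KEAP1, which holds NRF2 in check, was lower at -0.20 (SE 0.053; adjusted p = 0.0134 by edgeR) and RXRB at -0.23 (SE 0.071; adjusted p = 0.0295 by edgeR). The KEAP1 call was lost without shTRIM21 replicate 2 or shControl replicate 3, and the RXRB call without shTRIM21 replicate 1 or 2 or shControl replicate 1 or 2. With upper-quartile factors the RXRB call was lost too. NFE2L2, the NRF2 gene, missed the threshold at -0.15 (SE 0.056; adjusted p = 0.0697 by edgeR). The drug receptor gene NR1I2 (PXR) had at most 5 counts in a library, and the bile acid receptor gene NR1H4 was listed at 0. Of 11 tested liver X receptor targets, 1 rose and 3 fell, with a median of -0.13. Unscaled library sizes put this median at 0.10, and none of the 3 was then called lower. MYLIP, which degrades the LDL receptor, was higher at 0.44 (SE 0.12; adjusted p = 0.0153 by edgeR), a call lost without shTRIM21 replicate 2 or shControl replicate 2. The desaturase gene SCD was lower at -0.36 (SE 0.067; adjusted p = 0.00159 by edgeR) and the RNA gene IDI2-AS1 at -0.61 (SE 0.14; adjusted p = 0.00566 by edgeR). SREBF1, the regulator of fatty acid synthesis, was lower at -0.19 (SE 0.062; adjusted p = 0.0413 by edgeR), a call kept in 1 of the 6 leave-one-out fits, that without shControl replicate 3. The SREBF1 call was also lost with upper-quartile factors and with a replicate block.

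Conjugating enzymes make many substrates of the MRPs. Of 24 tested genes in their list, which includes glutathione synthesis, 4 rose and 1 fell, with a median of 0.06. SULT1A3 and SULT1A4, neither of them called, had identical counts in every library, so the same measurement enters this list more than once. GCLM, the modifier subunit of the enzyme that starts glutathione synthesis, was lower at -0.56 (SE 0.075; adjusted p = 0.000112 by edgeR), with 889, 832 and 792 counts in shTRIM21 and 1215, 1235 and 1124 in shControl. With unscaled library sizes it was not called. GSTO2 was higher at 0.23 (SE 0.057; adjusted p = 0.0112 by edgeR), a call lost without shTRIM21 replicate 2. GSTA4 had 25, 15 and 19 counts in shTRIM21 and 6, 5 and 9 in shControl, 2.82-fold higher (SE 0.46 on the log2 scale; adjusted p = 0.0304 by edgeR). It was not called by DESeq2, with no filter on low counts, without shTRIM21 replicate 1 or 3, without shControl replicate 1 or 2, or without shControl replicates 1 and 3 together. The sulfotransferase gene SULT1B1 was higher at 1.75 (SE 0.44; adjusted p = 0.0119 by edgeR), on 99, 37 and 41 counts in shTRIM21 and 25, 9 and 17 in shControl, a call lost without shTRIM21 replicate 1. Glucuronosyltransferase genes of the UGT1A cluster in the list were all listed at 0. Among 8 tested solute carriers of organic ions 2 rose and 2 fell, with a median of 0.04. SLCO1B3, an uptake carrier of organic anions, was lower at -0.88 (SE 0.18; adjusted p = 0.00284 by edgeR), and SLCO4A1 at -0.34 (SE 0.069; adjusted p = 0.00297 by edgeR). With unscaled library sizes SLCO1B3 was still called and SLCO4A1 was not. SLCO3A1 was higher at 0.84 (SE 0.20; adjusted p = 0.00899 by edgeR), a call lost without shTRIM21 replicate 1. SLC22A18 was higher at 0.31 (SE 0.10; adjusted p = 0.0404 by edgeR), a call kept in 1 of the 6 leave-one-out fits, that without shTRIM21 replicate 1. The SLC22A18 call was also lost with a replicate block.

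Scaffold proteins hold apical pumps such as MRP2 in the membrane. Of 5 tested scaffold genes 0 rose and 2 fell. EZR, encoding ezrin, had 44744, 46842 and 44432 counts in shTRIM21 and 65577, 68967 and 66435 in shControl, with a log2 fold change of -0.61 (SE 0.061; adjusted p = 5.94e-06 by edgeR). MSN, encoding moesin, was lower at -0.33 (SE 0.048; adjusted p = 0.000251 by edgeR). RDX, encoding radixin, the anchor of MRP2 in mouse liver, was at 0.04 (SE 0.061) and not called. With library sizes alone EZR was at -0.41 and MSN at -0.12, and neither was called. Of 12 tested sterol carriers and apolipoproteins that work with sterol exporters, 0 rose and 1 fell: NPC1, of lysosomal cholesterol export, at -0.26 (SE 0.077; adjusted p = 0.0255 by edgeR), which was -0.04 and not called with library sizes alone. That call was also lost with upper-quartile factors and without shTRIM21 replicate 1 or 2 or shControl replicate 1 or 3.

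The list counts below also moved without shControl replicates 1 and 3, except that of the scaffold genes. In that fit 0 regulators were called higher and 2 lower, 1 liver X receptor target higher and 1 lower, 2 conjugating enzymes higher and 1 lower, and 0 solute carriers higher and 2 lower. Scaffold genes gave 0 higher and 2 lower, peroxisomal genes 1 higher and 0 lower, and sterol carriers and apolipoproteins 0 in either direction. Iron-sulfur and haem genes gave 1 higher and 3 lower, and ribosome recycling genes 0 higher and 1 lower. Colon epithelium markers gave 2 higher and 3 lower.

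**Figure D4:**
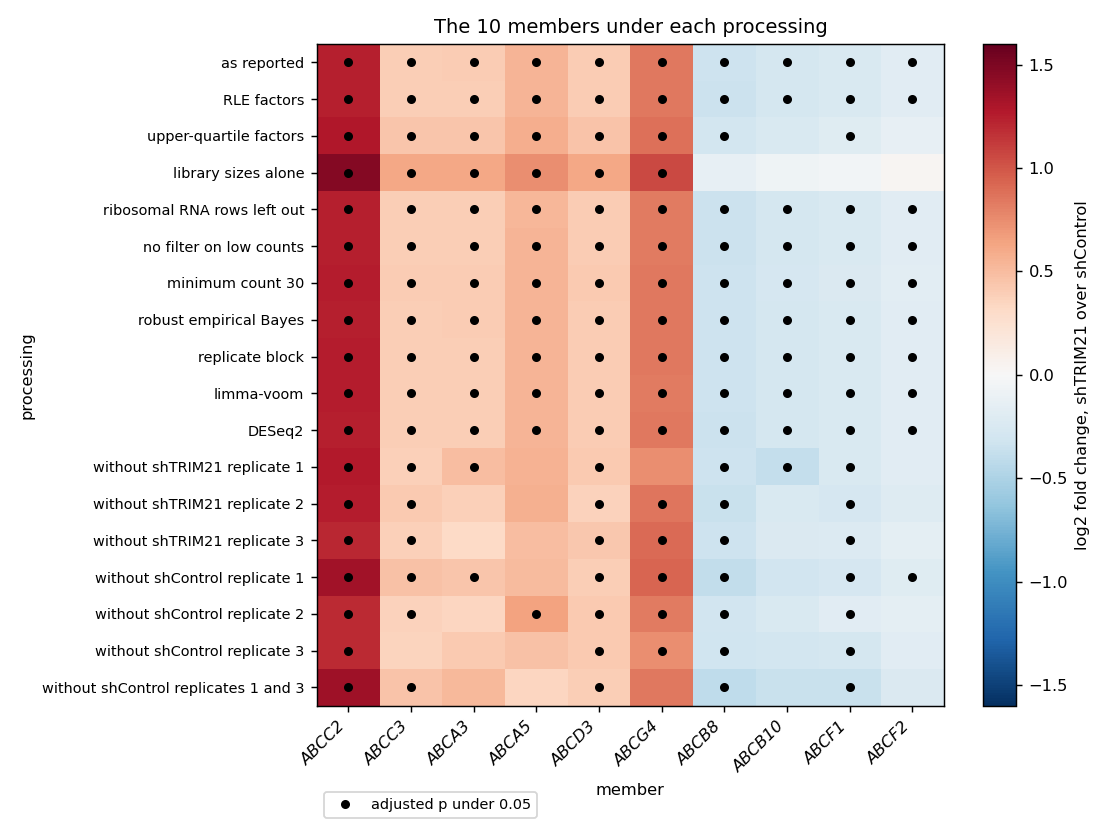
Log2 fold change (colour) of the 10 called members under the reported processing and 17 alternatives, shTRIM21 over shControl, with a dot where the adjusted p was under 0.05. ABCC2 and ABCD3 keep the dot in every row, ABCB8 and ABCF1 lose it with library sizes alone, and ABCF2 turns from -0.18 to 0.03 there.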

How the data were processed

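For each library the authors deposited a table of whole-number counts, unscaled, with 28278 rows named by symbol. Per the submitters' processing notes, TopHat2, edgeR 3.38.1, limma 3.52.2 and hg38 belong to the authors' processing, with no step given for any. How reads were assigned to genes, including strand, is not given in the sources used here, so overlapping genes may share reads: 23 of the 31 tested members overlap another RefSeq gene.

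The deposited counts were tested here in edgeR 4.0.16 under R 4.3.3, with limma 3.58.1 and DESeq2 1.42.0 as alternatives. Genes were filtered with filterByExpr (minimum count 10, minimum total 15), scaled with TMM and compared by the quasi-likelihood F test of edgeR over the 6 libraries, with Benjamini-Hochberg adjustment over 15131 genes. The test was tested on simulated data. Those counts were drawn with the dispersions of this fit and changes in few genes, so their outcome cannot vouch for the calls made here. Standard errors are the log2 fold change over the square root of F. Levels per kb use the union of GENCODE release 29 exons, available for 46 of 46 members; the authors' annotation may differ. Positions are from RefSeq GRCh38.p14, where 46 symbols matched; promoters had 53 entries for members, some genes having several.

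The members, gene lists and ratios were chosen with earlier results of these data known. Named genes are all members, ABC proteins with other symbols, and up to 3 called genes per list and direction, by p-value. KCNJ8, NFE2L2, NR1I2, NR1H4, COL1A1, RDX, SULT1A3 and SULT1A4 were named beside them. Replicate libraries differed by more than counting noise (chi-square per degree of freedom 15.2 to 341, over genes with a total of at least 20). These values use unscaled counts with ribosomal RNA rows included, so they also hold differences in the ribosomal RNA share. They do not measure the spread of single genes, and the part of ribosomal RNA in them was not tested. Alternatives were RLE, upper-quartile and no scaling, leaving out ribosomal RNA rows, no filter or a minimum count of 30, robust empirical Bayes, limma-voom, DESeq2, a replicate block and leaving out each library. Leaving out shControl replicates 1 and 3 was added after seeing the data. Results for some members and list genes are not reported here; group counts and medians include them.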

Additional observations from a re-analysis of the deposited data

How the results depend on the processing

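Over 17 alternatives, the 10 called members kept their call in 138 of 170 values, were not called in 31 and turned in 1 (ABCF2, 0.0304 with library sizes alone). Fits that left out 1 library called 5 to 9 members, 3 to 6 of them higher and 2 to 3 lower, and 1 to 3 drug efflux pumps. They called 1844 to 2592 of all genes, 841 to 1211 higher and 1003 to 1398 lower, and the family median ran from -0.0369 to 0.119. With library sizes alone 1969 genes were called, 138 of them lower, with 0 members lower and a family median of 0.25. With upper-quartile factors 2 members were lower. Without shControl replicates 1 and 3, 1958 genes (854 higher, 1104 lower) and 6 members (2 lower) were called, with a family median of 0.17. The cause of these shifts was not tested.

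Same-numbered libraries of the groups did not deviate together (correlations -0.01, 0.01 and -0.08), so the numbers were not taken to pair them. With a replicate block 2905 genes and 10 members were called, the same 10 members as without it. At the depth of these libraries, members with under about 100 counts had intervals too wide to show changes of the size seen in ABCC3.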
